A study of Rattus norvegicus with 12 samples.

Results

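A set of 9 liver genes of glucose output, glucose entry and glycogen was followed across 12 rat liver RNA-seq libraries. They are Pck1, Fbp1, Pc and Ppargc1a (gluconeogenesis), Gckr, Slc2a2 and Pfkfb1 (glucose entry and the switch between glycolysis and gluconeogenesis), and Pygl and Gys2 (glycogen). The genes were chosen by name, 9 of 16558 genes in the joined count tables. Of these, 8 carried the name used to choose them and 1, Pcx, was found under its current rat symbol Pc. All 9 passed the filter on low counts that left 12355 genes for testing.

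The livers came from Sprague Dawley rats in 4 groups of 3 libraries. In 2 didymin arms, called D and G after the letters in the count tables, rats with fatty liver from a high-fat diet received didymin, a flavonoid glycoside of citrus fruits. The model group had that diet for 8 weeks without didymin, and the normal group, titled wt in the labels, was given saline. Labels name a low and a high dose, but none ties a letter to a dose, so no dose order is read from D and G. The sources used here give neither age, sex, the dose itself nor the length of didymin treatment, and not the feeding state at sampling. The diet is the model of non-alcoholic fatty liver disease here, and all values are for whole liver tissue.

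Between meals the liver makes glucose from lactate, amino acids and glycerol and releases it, and after a meal it takes glucose up and stores it as glycogen. Pyruvate carboxylase, phosphoenolpyruvate carboxykinase and fructose-1,6-bisphosphatase catalyse steps of gluconeogenesis that glycolysis cannot run backwards. Glucagon, acting through cAMP and the factor CREB, raises transcription of these genes and of the coactivator PGC-1alpha, while insulin lowers it. GLUT2 carries glucose across the hepatocyte membrane, and glycogen synthase and glycogen phosphorylase build and break down the store.

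The promoters of Pck1 and Ppargc1a are shown because these genes had the lowest unadjusted p-values of the 9 when the model was set against normal, and because both are textbook targets of cAMP signalling. The sequences are the 250 bases before each start site in RefSeq's GRCr8 assembly, both on the plus strand, at chr3:182348322-182348571 for Pck1 and chr14:63634058-63634307 for Ppargc1a. Capitals mark the cAMP response element TGACGTCA and its core TGACG, searched on both strands; the second lies within the first, and on the other strand it reads CGTCA.
Pck1: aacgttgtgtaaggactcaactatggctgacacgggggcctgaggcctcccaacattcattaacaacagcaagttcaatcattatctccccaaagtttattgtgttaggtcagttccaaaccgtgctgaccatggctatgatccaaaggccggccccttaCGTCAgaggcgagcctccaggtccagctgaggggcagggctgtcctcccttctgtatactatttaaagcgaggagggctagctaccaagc
Ppargc1a: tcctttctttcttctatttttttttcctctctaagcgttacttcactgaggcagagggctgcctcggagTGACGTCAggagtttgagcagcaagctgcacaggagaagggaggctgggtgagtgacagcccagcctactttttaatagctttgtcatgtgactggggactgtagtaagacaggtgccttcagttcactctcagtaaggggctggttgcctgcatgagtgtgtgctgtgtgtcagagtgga

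The core lay 90 bases before the Pck1 start, on the minus strand. The full element lay 181 bases before the Ppargc1a start, and a further core lay 25 bases after it, outside the stretch shown. Gckr had the core 64 bases before its start. Of 33469 rat promoter windows of the same length, which take in 50 bases past the start, 1.83% held the full element and 21.2% the core. The FOXO-type motif TGTTTAC (3.78% of windows) and the E-box CACGTG (6.42%) were in none of the 8 windows found for the 9 genes. A match or its lack in such a window is a description of letters only.

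Libraries held between 12469914 and 15521648 counts. G.3, of arm G, and M.6, of the model, stood apart: 60.95% and 44.14% of their counts came from 13 mitochondrial genes, against 3.853% to 18.85% in the other 10 libraries, which left 4869054 and 7173229 nuclear counts. Hepatocyte markers were plentiful in every library, but their summed level was 50500 CPM in G.3 and 80400 CPM in M.6, against 157000 to 209000 CPM in the others. CPM, the counts scaled to a common library size after TMM, which evens out composition between libraries, are not divided by gene length, so a level is compared here between libraries and never between genes. Fold changes of the 9 genes that rest on G.3 or M.6 are also given without both. The mitochondrial share moved with several of the 9: Pearson r with log2 CPM was -0.85 for Pck1, -0.92 for Fbp1 and 0.88 for Gckr over 12 libraries, and -0.77, -0.58 and 0.61 over the 10 without M.6 and G.3. The part of that share in the results was not tested. The name of 1 model library, M2.1, has another form than those of M.5 and M.6, and whether it is a repeat or of another cohort is not known. It sets the model's end of the range nearest to normal livers in Pck1, Fbp1, Pc, Ppargc1a, Gckr and Pfkfb1. Results of several of the 9 genes are therefore given without it too.

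In the model against normal, none of the 9 genes reached an adjusted p under 0.05 with edgeR, and neither did any other of the 12355 (background 0%), where DESeq2 called 38 genes, none of them among the 9. The unadjusted p was under 0.05 for 2 of the 9, Pck1 and Ppargc1a, both lower in the model, and for 607 genes in all (background 4.91%). The ranges of the model and normal libraries did not overlap for 4 of the 9: Pck1, Fbp1 and Ppargc1a lay lower and Gckr higher in the model. Over all genes the share without overlap was 10.5%. The median log2 fold change of the 9 was -0.30, and that of all tested genes 0.03. Counts at an unadjusted p are unstable here: with 1 library left out, all genes ran between 285 (without N.2) and 2561 (without M2.1), and the 9 between 1 and 4 (4 without M2.1). Markers of other cell types also parted: the summed level of 8 endothelial markers was 221 to 289 CPM in the model, against 301 to 360 CPM in normal livers, and that of 12 hepatocyte markers 80400 to 166000 CPM in the model, against 172000 to 209000 CPM in normal livers. Their part in the differences was not tested.

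**Figure D1:**
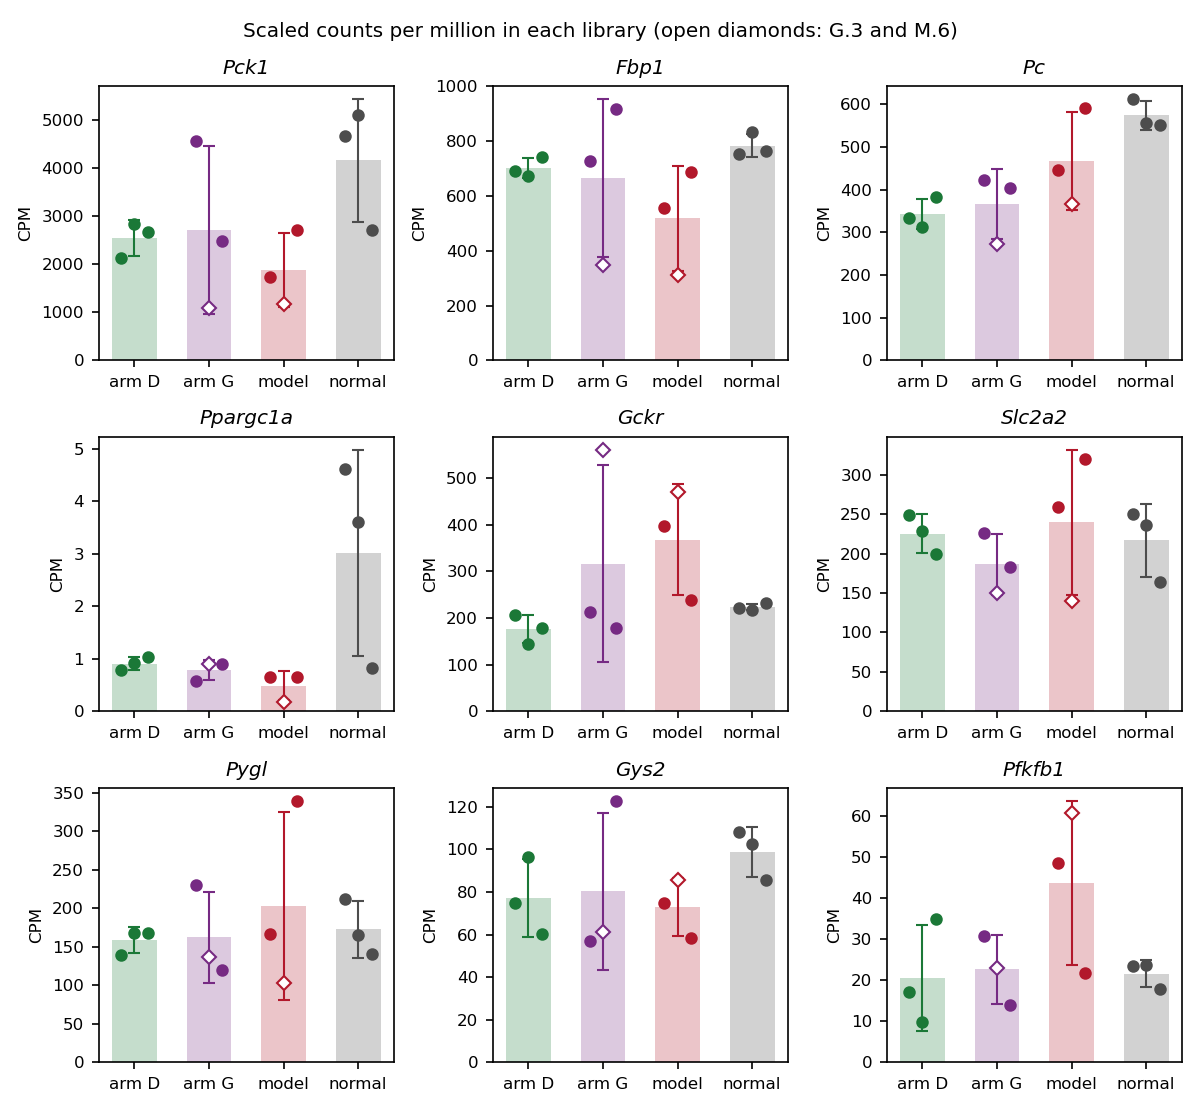
CPM of the 9 genes in each library (points), with the mean (bar) and SD (error bar) of 3 libraries, for arm D, arm G, the model and normal; open diamonds are G.3 and M.6. Pck1 and Ppargc1a have 2 high normal libraries and 1 near the model, and Gckr is highest in G.3 and M.6.

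Pck1 encodes cytosolic phosphoenolpyruvate carboxykinase, which turns oxaloacetate into phosphoenolpyruvate and whose level follows its transcription closely. Its libraries stood at 1728, 1180 and 2700 CPM in the model, against 4654, 5101 and 2702 CPM in normal livers. The highest model library, M2.1, and the lowest normal library, N.3, were level, so the groups parted only narrowly. The log2 fold change was -1.15 ± 0.51 (SE), a level 0.450 times that of normal livers, with an adjusted p of 0.866 in edgeR (0.628 in DESeq2). Without M.6 and G.3 the log2 fold change was -0.91, and without M2.1 it was -1.52. In whole tissue, fewer cells of a type and less RNA per cell cannot be told apart, here or in any later result.

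In the didymin arms Pck1 averaged between these groups. It stood at 2122, 2836 and 2677 CPM in arm D and at 4563, 1096 and 2470 CPM in arm G. Arm G held both one of the highest values of all libraries and the lowest, the lowest being G.3. Means and SDs were 2545 ± 375 CPM in arm D, 2710 ± 1746 CPM in arm G, 1869 ± 770 CPM in the model and 4152 ± 1276 CPM in normal livers (n = 3 each). Arm D against model gave a log2 fold change of 0.45 ± 0.50 and arm G against model 0.54 ± 0.50. These were 0.23 and 0.68 without M.6 and G.3. Both intervals of the 12-library fit took in no change (-0.65 to 1.54 for arm D and -0.56 to 1.63 for arm G), and neighbours in the order of means did not differ beyond their spread.

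Ppargc1a encodes PGC-1alpha, the coactivator that fasting raises in liver and that drives Pck1 and its partners. It was sparsely counted, at 8, 2 and 12 counts in the model, against 72, 60 and 11 in normal livers. In CPM this was 0.6481, 0.1799 and 0.6507 in the model, against 4.61, 3.605 and 0.8203 in normal livers. N.1 and N.2 stood well above every other library, while N.3 was near the highest model library. The log2 fold change was -2.57 ± 0.66, the largest of the 9 in size, with a p that ranked 35 among all genes and an adjusted p of 0.7298 in edgeR. DESeq2 put the adjusted p of Ppargc1a at 0.05679, just above the threshold. The authors' deposited table, made with DESeq2 per the submitters' processing notes, gave an adjusted p of 0.15 between the same groups. Without M.6 and G.3 the log2 fold change in edgeR was -2.20, and with 1 library left out it ran from -3.01 to -2.13.

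The arms held Ppargc1a near the model and not near N.1 and N.2. Arm D stood at 0.7805, 0.9179 and 1.029 CPM and arm G at 0.5748, 0.9074 and 0.9008 CPM. All arm D libraries lay above all model libraries in CPM, but narrowly. The counts were 11, 16 and 17 in arm D, against 8, 2 and 12 in the model. Before scaling, D.1 thus held fewer counts than M2.1. The log2 fold change of arm D against the model was 0.84 ± 0.66 (adjusted p = 0.8413 in edgeR). The model's mean rests in part on M.6, with its 2 counts, and the value was 0.48 without M.6 and 0.51 without M.6 and G.3. Set against normal livers, it was -1.72 ± 0.63 in arm D (adjusted p = 0.6136 in edgeR) and -1.93 ± 0.64 in arm G (adjusted p = 0.7232). The values without M.6 and G.3 were -1.69 and -2.01. N.3 overlapped both arms, so the ranges did not part.

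Fbp1 encodes fructose-1,6-bisphosphatase, which removes a phosphate on the way from the triose stage to glucose 6-phosphate. It stood at 690.7, 671.4 and 743.9 CPM in arm D, at 728.8, 349.1 and 916.2 CPM in arm G, at 555.9, 310.4 and 688.1 CPM in the model and at 754.6, 832.8 and 764.5 CPM in normal livers. The lowest values were those of M.6 and G.3. Model against normal gave -0.60 ± 0.38 (adjusted p = 0.866), -0.34 without M.6 and G.3, and -0.86 without M2.1. Arm D and normal livers varied little in Fbp1, with SDs of 37.6 and 42.6 CPM, while arm G and the model had SDs of 289 and 192 CPM.

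Pc encodes pyruvate carboxylase, the mitochondrial enzyme that makes oxaloacetate from pyruvate. It differed from the other gluconeogenic genes in the order of its groups: arm D at 343.4 ± 35.6 CPM, arm G at 366.4 ± 82.3 CPM, the model at 467.7 ± 115 CPM and normal livers at 574 ± 33.1 CPM. Single libraries stood at 334.5, 313.2 and 382.6 CPM in arm D, 423.5, 272.1 and 403.5 CPM in arm G, 446.2, 365.5 and 591.5 CPM in the model and 612.2, 557.2 and 552.6 CPM in normal livers. Every library of both arms lay below every normal library. Against normal, the log2 fold change was -0.74 ± 0.28 in arm D (adjusted p = 0.636 in edgeR) and -0.65 ± 0.27 in arm G (adjusted p = 0.7232). These were -0.71 and -0.46 without M.6 and G.3. Against the model the log2 fold change was -0.45 ± 0.27 in arm D and -0.35 ± 0.27 in arm G, and the model against normal gave -0.30 ± 0.27, all with ranges that overlapped. Leaving out M.6 and G.3 gave -0.57, -0.32 and -0.15. Without M2.1, the highest model library, they were -0.24, -0.15 and -0.51.

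**Figure D2:**
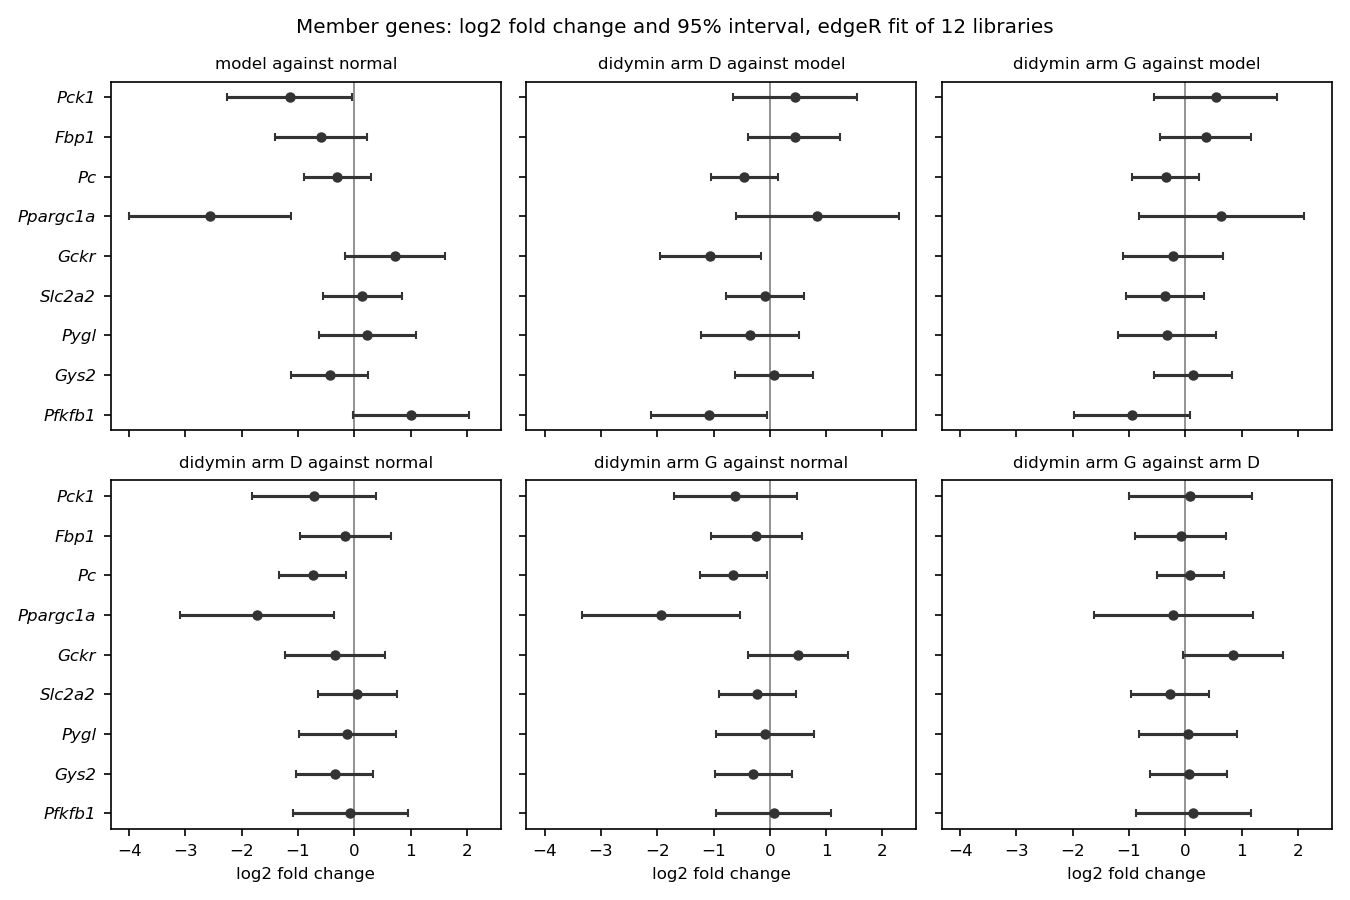
Log2 fold change (points) and 95% interval (bars) of the 9 genes in 6 comparisons, from 1 edgeR fit of 12 libraries. In the model against normal the intervals of Pck1 (-2.26 to -0.04) and Ppargc1a (-4.01 to -1.12) lie below 0, and in arm D against model those of Gckr and Pfkfb1 do.

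Gckr encodes a regulatory protein of liver sugar metabolism. It stood at 396.1, 469.1 and 237.8 CPM in the model, against 221.6, 217.4 and 231.2 CPM in normal livers, a log2 fold change of 0.72 ± 0.41 (adjusted p = 0.866). It was 0.50 without M.6 and G.3 and 0.95 without M2.1. The ranges parted only narrowly, between M2.1 and N.3. Normal livers agreed closely in Gckr, with a highest value 1.06 times the lowest.

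Arm D held less Gckr than the model, at 205.6, 145 and 179 CPM, and every arm D library lay below every model library. The log2 fold change was -1.06 ± 0.41, a level 0.480 times that of the model, with an adjusted p of 0.7851 in edgeR. Leaving out M.6 and G.3 gave -0.82, and leaving out M2.1 gave -1.29. Arm D also lay below every normal library, by a log2 fold change of -0.34 ± 0.41. Arm G stood at 211.8, 559.5 and 178.2 CPM: G.1 and G.4 lay with arm D, and G.3 was the highest of all 12 libraries. Arm G against model was -0.22 ± 0.41 with G.3 and M.6, and -0.69 without both (adjusted p = 0.9988 in edgeR).

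Pfkfb1 encodes the liver form of the enzyme that makes and breaks down fructose 2,6-bisphosphate, the signal that speeds glycolysis and holds back fructose-1,6-bisphosphatase. It stood at 48.61, 60.81 and 21.69 CPM in the model, against 23.44, 23.74 and 17.82 CPM in normal livers. M.5 and M.6 were high and M2.1 lay among the normal libraries. The log2 fold change was 1.01 ± 0.47 (adjusted p = 0.866), and 0.70 without M.6 and G.3 and 1.33 without M2.1.

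In arm D, Pfkfb1 stood at 17.17, 9.81 and 34.92 CPM, and in arm G at 30.85, 23.14 and 14.07 CPM. Against the model the log2 fold change was -1.08 ± 0.47 in arm D (adjusted p = 0.7882 in edgeR) and -0.94 ± 0.47 in arm G (adjusted p = 0.9997). Each arm overlapped the model through M2.1. Without M.6 and G.3 the values were -0.74 and -0.63.

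Slc2a2 encodes GLUT2, the transporter that lets glucose into and out of the hepatocyte. It stood at 248.3, 228.5 and 198.9 CPM in arm D, 226.6, 149.8 and 182.4 CPM in arm G, 258.5, 139.8 and 320.1 CPM in the model and 250.3, 236.4 and 164.1 CPM in normal livers. All 4 groups overlapped, and the model held both the highest and the lowest library. Log2 fold changes in the 6 comparisons lay between -0.36 and 0.14, and between -0.49 and 0.42 without M.6 and G.3.

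Pygl encodes liver glycogen phosphorylase, which releases glucose units from glycogen. It stood at 138.9, 168.5 and 168.2 CPM in arm D, 230.4, 137.5 and 120.4 CPM in arm G, 167.2, 103.2 and 339.5 CPM in the model and 212.8, 165.2 and 140.6 CPM in normal livers. The model again held the lowest library, M.6, and the highest, M2.1. Model against normal was 0.23 ± 0.40, 0.55 without M.6 and G.3 and -0.36 without M2.1, so that 1 library set the direction.

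Gys2 encodes liver glycogen synthase, which builds glycogen. It stood at 74.64, 96.55 and 60.34 CPM in arm D, 56.97, 61.25 and 122.6 CPM in arm G, 74.94, 85.55 and 58.4 CPM in the model and 108, 102.5 and 85.53 CPM in normal livers. Model and normal almost parted, at 85.55 CPM in M.6 and 85.53 CPM in N.3. The log2 fold change was -0.44 ± 0.32 (adjusted p = 0.866), with an interval of -1.12 to 0.25, and it was -0.57 without M.6 and G.3.

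Arm D against model had 2 of the 9 genes at an unadjusted p under 0.05, Gckr and Pfkfb1, both lower (background 6.28%), and 2 without overlap, Gckr below and Ppargc1a above the model (background 12.6%). Arm G against model had 0 of the 9 at that p (background 2.32%) and 0 without overlap (background 4.69%). With edgeR 0 genes were called at an adjusted p under 0.05 in either comparison (background 0% in each), where 776 and 287 genes had an unadjusted p under 0.05, while DESeq2 called 12 and 5 genes, none of them among the 9. Both comparisons use the same model libraries, and so does model against normal. With 1 library left out, all genes at an unadjusted p under 0.05 ran between 318 and 1802 in arm D and between 232 and 921 in arm G. Endothelial markers summed to 378 to 432 CPM in arm D, against 221 to 289 CPM in the model. The sum of 6 B and plasma cell markers was 32.9 to 34.1 CPM in arm D, against 9.33 to 26.7 CPM in the model. Of 4 adipocyte markers, Adipoq and Lep were absent from the joined counts. The other 2, Plin1 and Cidec, summed to 43.9 to 57.9 CPM in arm D, against 65.0 to 72.7 CPM in the model. This sum is not read as a measure of adipocytes. Of 5 neutrophil markers the sum was 39.0 CPM in G.3 and 36.3 CPM in M.6, against 1.52 to 20.8 CPM in the others. The part of what these sums reflect in the differences was not tested. The median log2 fold change of the 9 was -0.09 in arm D and -0.22 in arm G, beside -0.04 and 0.00 over all tested genes.

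Between the arms, arm G against arm D, 0 of the 9 had an unadjusted p under 0.05 (background 3.42%) and 0 parted in range (background 7.43%); edgeR called none of all genes (background 0%). The widest difference was that of Gckr, 0.84 ± 0.41 (adjusted p = 0.9993), which was 0.13 without M.6 and G.3. The other 8 lay between -0.27 and 0.14, and between -0.32 and 0.45 without M.6 and G.3. For Fbp1, for example, the interval of the difference was -0.89 to 0.73, and for Ppargc1a -1.62 to 1.21, so sizeable differences between the arms remain within them.

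Against normal livers, arm D had 2 of the 9 at an unadjusted p under 0.05, Pc and Ppargc1a (background 6.34%), and 3 without overlap, Fbp1, Pc and Gckr, all below normal (background 16.8%). Arm G had the same pair of genes at that p (background 6.59%) and 1 without overlap, Pc (background 10.6%). Again edgeR called no gene at an adjusted p of 0.05 (background 0% in each); 783 and 814 genes had an unadjusted p under 0.05. Of the 9 genes, 8 had a negative log2 fold change in arm D and 7 in arm G, beside 6402 and 6026 of all 12355 tested genes. Among the 8 and the 7, Pygl and Pfkfb1 in arm D and Fbp1 and Pygl in arm G changed sign with 1 library left out. Medians of the 9 were -0.34 and -0.24, beside -0.01 and 0.01 over all tested genes. Both arms share their normal libraries here. Hepatocyte markers summed to 157000 to 164000 CPM in arm D, against 172000 to 209000 CPM in normal livers. B and plasma cell markers summed to 32.9 to 34.1 CPM in arm D and 26.5 to 40.9 CPM in arm G. In normal livers they summed to 5.23 to 16.4 CPM. Endothelial markers summed to 378 to 432 CPM in arm D, against 301 to 360 CPM in normal livers. T and NK cell markers were also higher in arm D than in normal livers, and neutrophil markers in both arms, without overlap. Stellate cell and fibroblast markers were lower in arm G than in normal livers, also without overlap. Their part in the differences was not tested.

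**Figure D3:**
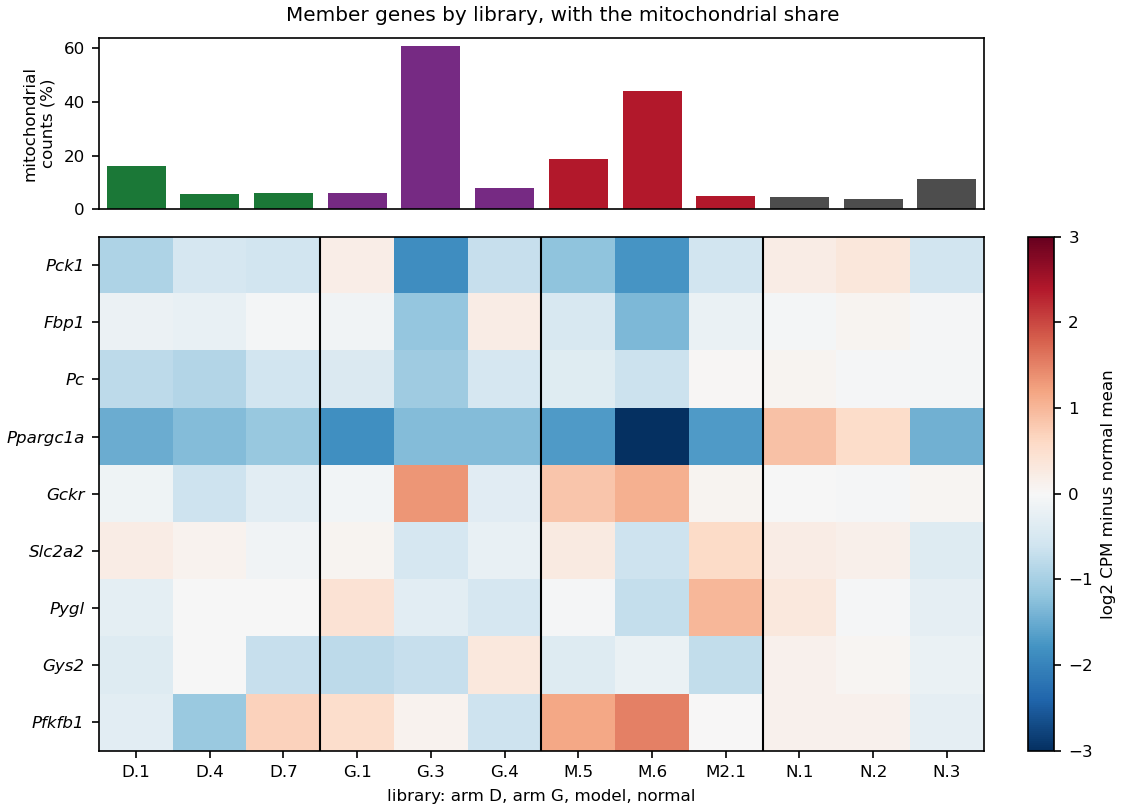
Log2 CPM of the 9 genes in each library minus the mean of the normal libraries (colour), with the share of counts from mitochondrial genes above (bars, in %). G.3 and M.6, with the tallest bars, are the lowest libraries in Pck1 and Fbp1 and the highest in Gckr.

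The libraries of a group agreed better in arm D and in normal livers than in arm G and in the model. The highest library was a median of 1.32 times the lowest over the 9 genes in arm D, 2.15 times in arm G, 2.29 times in the model and 1.33 times in normal livers. Over all genes counted in all 3 libraries of a group these medians were 1.51, 1.99, 2.04 and 1.56. Among the 9, M.6 was the lowest of all 12 libraries in Fbp1, Ppargc1a, Slc2a2 and Pygl and the highest in Pfkfb1, and G.3 was the lowest in Pck1 and Pc and the highest in Gckr.

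Across the 12 libraries, Pck1 ran with Fbp1 (Pearson r 0.82 of log2 CPM) and against Gckr (-0.73), and Fbp1 ran against Gckr (-0.87). Over the 10 libraries without M.6 and G.3 these were 0.50, -0.29 and -0.56. Pck1 with Ppargc1a gave 0.67 over 12 and over 10 libraries, Gckr with Pfkfb1 0.64 and 0.73, and Slc2a2 with Pygl 0.80 and 0.73. The libraries share group, depth and composition, so these are descriptions. Of all other tested genes, those most like Pck1 were Mthfd1 and Ccpg1 (0.96 each over 12 libraries) and Sntb1 and Cyp2r1 (0.94 each over 10). Those most like Gckr were Rfx1 and Vegfa (0.97 each over 12) and Vegfa and Npas2 (0.97 each over 10). For Ppargc1a they were Stag2 and Rhobtb3 (0.89 each over 12) and Fam117b and Acss2 (0.96 and 0.92 over 10).

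The wider pathway was taken as 5 lists of gluconeogenesis, steps shared with glycolysis, glycolysis, glycogen, and regulators of glucose output. Of 113 listed genes with counts, 109 were tested, and 0 had an adjusted p under 0.05 in any of the 6 comparisons with edgeR. DESeq2 put Nr1d1 in arm D against model under that threshold (adjusted p = 0.0499). At an unadjusted p under 0.05 there were 7 of the 109 in the model against normal (4 higher and 3 lower), beside 4.91% of all tested genes. In arm D against model there were 7 (3 higher and 4 lower), beside 6.28%, in arm G against model 7 (3 higher and 4 lower), beside 2.32%, and in arm G against arm D 3 (all higher), beside 3.42%. As shares of the 109 these were 6.42%, 6.42%, 6.42% and 2.75%. Their median log2 fold changes were -0.03, -0.09, -0.01 and -0.04. The gluconeogenesis list of 24 genes, which leaves out Pck1 and Ppargc1a, had none in the model against normal and none in arm D against model. In the same comparisons glycolysis had 1 and 3 of 18 (5.56% and 16.7%), and glycogen 1 and 1 of 22 (4.55% each). Regulators had 5 and 3 of 38 (13.2% and 7.89%), and the 7 shared steps none. All tested genes gave 4.91% and 6.28%, and the lists were not compared with each other by a test.

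**Figure D4:**
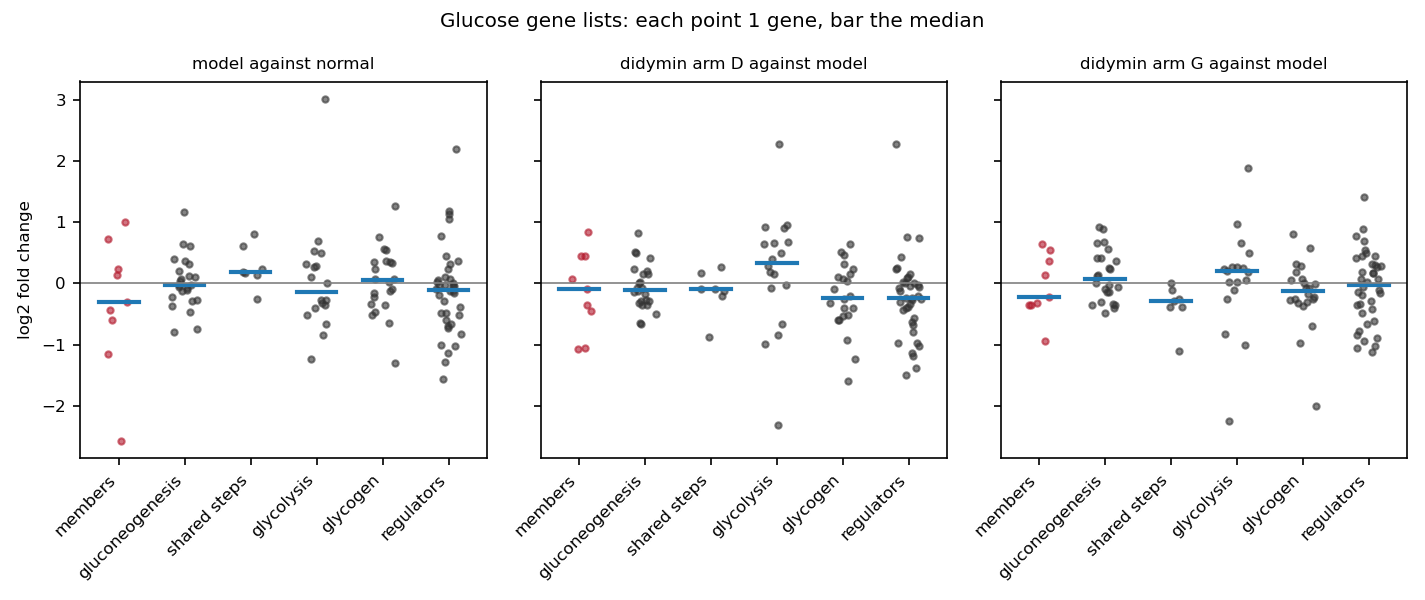
Log2 fold change of each tested gene (points) of the 9 genes (members) and of 5 pathway lists without them, with the list's median (bar), in 3 comparisons. Medians of the 5 lists run from -0.28 (shared steps, arm G against model) to 0.34 (glycolysis, arm D against model). In the model against normal they are -0.02 for gluconeogenesis and 0.05 for glycogen, beside -0.30 for the 9 genes.

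In the model against normal, Creb3l3, a liver factor of the fasting response, stood at -0.83 ± 0.25 and without overlap (adjusted p = 0.8434 in edgeR). Ppp1r3c, which targets a phosphatase to glycogen, stood at 1.27 ± 0.41 with overlap (adjusted p = 0.866 in edgeR). Without M.6 and G.3 they were -0.82 and 1.55. Ppp1r3c stood at 97.06, 69.36 and 197.3 CPM in the model, the highest being M2.1. With 1 library left out its log2 fold change ran from 0.72 to 1.65. In arm D against model the first was Nr1d1, the clock repressor REV-ERBalpha, at 33.28, 37.92 and 43.63 CPM in arm D, against 5.023, 3.688 and 14.91 CPM in the model. Its log2 fold change was 2.27 ± 0.54 (adjusted p = 0.7834 in edgeR), and the authors' deposited table, made with DESeq2 per the submitters' processing notes, gave 2.25 with an adjusted p of 0.04104. It was 1.96 without M.6 and G.3.

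Mlxipl, which encodes the glucose-sensing factor ChREBP, came second in arm D against model at -1.49 ± 0.44. Creb1, the CREB of the cAMP response, followed at -1.39 ± 0.50, both without overlap (adjusted p = 0.7834 for each in edgeR). Without M.6 and G.3 they were -1.12 and -1.65. Creb1 was highest in M2.1, and with 1 library left out its log2 fold change ran from -1.68 to -0.91. In arm G against model Ppp1r3b, another glycogen-targeting subunit, stood at -2.00 ± 0.65 and Nr1d1 at 1.42 ± 0.53. Without M.6 and G.3 they were -2.18 and 1.28. Ppp1r3b overlapped, at 59.46, 20.53 and 18.99 CPM in arm G, against 103.5, 38.5 and 255 CPM in the model. It was highest in M2.1, and with 1 library left out its log2 fold change ran from -2.75 to -1.10. Between the arms, G6pc, the phosphatase that frees glucose for release, stood at 1171, 2153 and 739.7 CPM in arm G, against 684.1, 479 and 443.5 CPM in arm D. Its log2 fold change was 1.34 ± 0.51 (adjusted p = 0.9993 in edgeR), and 0.82 without M.6 and G.3. Mlxipl (1.01 ± 0.43) and Gcgr, the glucagon receptor (1.15 ± 0.49), followed. All of these were highest in G.3 within arm G, and without M.6 and G.3 Mlxipl was 0.20 and Gcgr 0.14.

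Against normal livers, Foxo3, a factor that insulin signalling keeps out of the nucleus, had the lowest p in arm D (-2.20 ± 0.64), and Irs2, an insulin receptor substrate, stood at -1.57 ± 0.56, both without overlap. In arm G the 3 with the lowest p were Insr, the insulin receptor (-1.09 ± 0.38, without overlap), Klf9 (-2.41 ± 0.86) and Foxo3 (-1.71 ± 0.63). Without M.6 and G.3 the values in arm G were -0.86, -1.96 and -1.43. Among normal livers, Klf9 and Foxo3 were high in N.1 and N.2 only, and the ranges of arm G and normal overlapped through N.3. Outside the normal group M2.1 was highest in both, at 48.48 CPM for Klf9 and 10.74 CPM for Foxo3. For Klf9 N.3 stood at 12.38 CPM, against 2.722 to 17.44 CPM in arm G. For Foxo3 it stood at 5.593 CPM, against 3.063 to 8.559 CPM in arm G and just above the arm D maximum of 5.265 CPM. Of the 109 pathway genes, 14 in arm D (12.8%, beside 6.34% of all tested genes) and 7 in arm G (6.42%, beside 6.59%) had an unadjusted p under 0.05.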

How the data were processed

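Liver RNA was extracted with Trizol and made into NEBNext Ultra libraries, per the labels' protocols. The authors deposited 3 tables of raw read counts per gene, each of 6 libraries with the same 3 model libraries, joined here on gene name (0 for a gene a table does not list). The deposited tables also hold the authors' log2 fold changes, p-values and adjusted p-values. DESeq2 and a mouse build, mm9, stand in the submitters' processing notes; aligner, counter, strand setting and annotation were not given in the sources used here. The 36 other per-sample columns were not used. N and M were read as normal and model. Column names hold a group letter and a number, not always the labels' replicate number, and no label says which animal a library is from. The p-values measure the spread between libraries only.

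One quasi-likelihood fit in edgeR 4.0.16 (R 4.3.3) covered all 12 libraries, with TMM scaling, edgeR's filter on low counts and a mean per group. P-values were adjusted over 12355 genes by Benjamini-Hochberg, and the SE is the log2 fold change over the root of F. The fit was tested on simulated data. Alternatives used DESeq2 1.42.0 and limma 3.58.1. The 2 comparisons of an arm with normal were added after the data had been seen. One count was worth 0.0542 to 0.113 CPM. The 9 genes and all lists were chosen with earlier results of these data known. The rule for naming further genes was the 3 pathway genes with the lowest p per comparison, of which some are not reported here.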

Additional observations from a re-analysis of the deposited data

How the results depend on the processing

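Under 19 alternatives, 984 of 1025 recomputed fold changes of the 9 genes kept their sign and 41 changed it, and none of the 9 genes was called in any comparison. The 18 fold changes of pathway genes picked by the naming rule, recomputed after the data had been seen, kept their sign in all alternatives, and Nr1d1 in arm D against model passed the threshold under DESeq2. Ppargc1a could not be had for arm G against model in the fit of only these groups, where it failed the filter. Over all genes, DESeq2 called 38 genes in the model against normal, 12 in arm D against model, 5 in arm G against model, 5 in arm G against arm D, 77 in arm D against normal and 50 in arm G against normal, where edgeR called 0. Without the filter on low counts edgeR called 3 in the model against normal and 1 in arm G against arm D, without M.6 and G.3 it called 1 in the model against normal, and in a fit of only the groups compared 2 in arm D against normal; the cause was not tested. Leaving out 1 library gave 0 to 6 in the model against normal (6 without G.3, 1 without M.6), 0 to 1 in arm G against arm D (1 without G.4) and 0 to 1 in arm G against normal (1 without N.3).

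The count of the 9 genes at an unadjusted p under 0.05 ranged, with 1 library left out, from 1 to 4 in the model against normal (4 without M2.1), 0 to 2 in arm D against model (0 without D.4, M.5 or M.6), 0 to 1 in arm G against model and in arm G against arm D, 0 to 2 in arm D against normal (0 without D.1 or N.1) and 0 to 3 in arm G against normal (0 without N.1). The count over all genes moved as well, between 285 and 2561 in the model against normal, 318 and 1802 in arm D against model, 232 and 921 in arm G against model, 157 and 911 in arm G against arm D, 445 and 1105 in arm D against normal and 373 and 1409 in arm G against normal, so a change in the count of the 9 is not read as particular to them. Without M.6 and G.3 the 9 gave 2, 2, 1, 0, 2 and 2 in these comparisons. In the fit of only the groups compared it was 4 in the model against normal and 1 in arm D against model. Signs turned, in log2 fold change, in these cases, and the cause was not tested. Without M.6 and G.3, Fbp1 was 0.21 in arm G against arm D and 0.0789 in arm G against normal, Gckr was -0.19 and Pygl 0.0328 in arm G against normal. With limma-voom, Gys2 was -0.0129, Pck1 -0.16 and Pygl -0.0216 in arm G against arm D, and Slc2a2 0.00601 in arm D against model.

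With 1 library left out, ranges that crossed 0 were, in the model against normal, -0.36 to 0.55 for Pygl and -0.13 to 0.41 for Slc2a2. In arm D against model they were -0.11 to 0.23 for Gys2, -0.68 to 0.23 for Pygl and -0.36 to 0.18 for Slc2a2. In arm G against model they were -0.90 to 0.0486 for Gckr, -0.32 to 0.33 for Gys2, -0.0703 to 0.92 for Pck1 and -0.66 to 0.27 for Pygl. In arm G against arm D they were -0.39 to 0.21 for Fbp1, -0.41 to 0.25 for Gys2, -0.0276 to 0.25 for Pc, -0.52 to 0.45 for Pck1, -0.20 to 0.75 for Pfkfb1 and -0.30 to 0.20 for Pygl. In arm D against normal they were -0.69 to 0.26 for Pfkfb1, -0.26 to 0.0504 for Pygl and -0.11 to 0.17 for Slc2a2. In arm G against normal they were -0.56 to 0.0789 for Fbp1, -0.19 to 0.76 for Gckr, -0.23 to 0.30 for Pfkfb1 and -0.43 to 0.0862 for Pygl. No paired analysis was possible because the columns carry no replicate number of the labels outside the normal group. Depth limits Ppargc1a most, with 2 to 72 counts a library.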
